A study of Mus musculus with 9 samples.

Results

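The E2F transcription factors and the RB family were followed in hormone receptor positive (HR+) luminal cells of the mouse mammary gland, before and during the first week of pregnancy. The genes were taken by name: E2f1, E2f2, E2f3, E2f4, E2f5, E2f6 and E2f8, and Rb1, Rbl1 and Rbl2. All 23 probes that the platform annotation assigns to these 10 genes were read, out of 45281 probes on the array and 19057 genes with a named probe. The rule goes by gene names and uses no measured value.

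The cells came from female FVB mice (FVB/N in the study's methods), labelled as 9 to 11 weeks old, while the study's methods give 11 weeks for the virgin mice and 9 to 11 weeks as the age at mating for the pregnant ones. Each array holds the cells of 1 animal. The groups were virgin mice and timed pregnancies stopped at day 3 or day 7, with 3 animals in each. Every animal, virgin mice included, had been injected with the thymidine analogue EdU at 2 mg/g 24 hours before harvest. The study describes the virgin mice as at metestrus, and its methods place metestrus at the time of the EdU injection. Dead cells, CD45+ cells and stromal cells were gated out, luminal cells were taken by CD24 and CD49f, and HR+ cells among them by Sca1 and CD49b. From each animal 1000 such cells were sorted, and RNA equal to 167 cells was amplified over a pair of rounds and hybridised to Illumina Mouse WG-6 v2.0 bead arrays. The mice carry no transgene in the labels, and the model is limited to 1 strain, to cells defined by surface markers and to RNA that had been amplified.

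E2F proteins bind the promoters of genes needed for DNA synthesis and division. E2f1, E2f2 and E2f3 are known as activators, E2f4 and E2f5 as repressors that work together with RB proteins, and E2f6 and E2f8 as repressors that do so without them. Rb1, Rbl1 and Rbl2 encode the pocket proteins: in resting cells they hold E2F factors and silence the targets, and phosphorylation by cyclin-dependent kinases releases the factors at the passage from G1 to S phase. Some members, E2f1 and Rbl1 among them, are themselves known E2F targets. Much of the control of the family lies in protein modification, which an array does not see.

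Values are log2 normalised signals. The study set the array background at a signal of 100, which is 6.64 on this scale, and the median probe of each array lay at 92.4, so a level near 6.6 cannot be told from background. Since no background was subtracted, changes of dim probes are understated. Only probes that averaged 100 or more in some group were tested, and a probe was called when the fold was 2 or more with an adjusted p of 0.10 or less (limma, Benjamini-Hochberg adjustment over all 18707 tested probes). Of the 23 probes, 15 were tested, for 8 genes. E2f8 and Rbl2 had no tested probe, and 7 of the 23 probes lay under 100 on every array. Probes differ in how well they hybridise, so levels are compared between stages and never between genes.

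Raw array means were 284 to 316 in virgin, 353 to 520 at day 3 and 348 to 440 at day 7, and the quantile normalisation of the authors made the 9 distributions equal. The luminal keratins Krt8 (13.87 to 14.80) and Krt18 (12.75 to 13.90) and the HR+ factors Foxa1 and Pgr were well above background on all 9 arrays. Foxa1 was 10.28 to 10.38 in virgin and 8.96 to 9.21 at day 7. Pgr was 9.08 to 9.46 in virgin and 8.07 to 8.17 at day 3. Other HR+ markers rose. Tnfsf11 was 6.46 to 6.81 in virgin, 8.64 to 9.12 at day 3 and 10.39 to 10.85 at day 7. Cited1 was 7.56 to 8.07 in virgin and 8.83 to 9.64 at day 3. Wnt4 was 8.25 to 9.21 in virgin and 9.60 to 9.94 at day 7. Esr1 (6.54 to 7.13) and Elf5, the alveolar progenitor factor (6.44 to 7.08), stayed close to background, but the HR- luminal marker Csn3 (8.20 to 12.72) did not. The summed signal of the 9 tested HR- luminal markers was 5149 to 9708 in virgin, 1670 to 3040 at day 3 and 1677 to 4914 at day 7. Most of the virgin sum is Csn3 (11.87 to 12.72 in virgin), so the sum does not describe the list as a whole. At day 7 against virgin 1 of the 9 was called lower and 2 higher, among them Csn2 (6.31 to 6.52 in virgin, 8.57 to 9.22 at day 7). Among basal genes, the summed signal of the 9 tested markers was 956 to 1880 in virgin, 1540 to 4833 at day 3 and 3367 to 13546 at day 7. Krt14 was 9.18, 6.98 and 6.75 in virgin mice 1 to 3, 9.77, 7.24 and 7.34 in day 3 mice 1 to 3, and 8.76, 10.38 and 12.87 in day 7 mice 1 to 3. Day 3 mouse 1 stood apart from the other day 3 mice in Krt14 and in the smooth muscle actin gene Acta2 (11.07, against 7.47 and 7.33), which was 9.13, 9.27 and 7.52 in virgin. The day 3 changes of E2f1 and Rbl1 and the counts of the cell cycle lists are therefore also given without this mouse. Leaving it out does not remove Krt17, which was 10.12, 9.36 and 9.90 at day 3, against 7.48, 6.61 and 6.79 in virgin.

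Among the 15 tested probes, that of E2f1 had the largest measured change at day 3. It was 6.64, 6.50 and 6.76 in the virgin mice, 9.14, 8.80 and 8.98 at day 3, and 7.39, 7.17 and 6.42 at day 7. The day 3 mice stood apart from all 6 others, and the virgin and day 7 mice overlapped, with day 7 mouse 3 below every virgin mouse. The raw signal before normalisation was 96.7, 93.3 and 98.9 in virgin, 962, 573 and 539 at day 3, and 201, 141 and 89.9 at day 7, with 1 of 3 virgin arrays and 2 of 3 day 7 arrays at a normalised signal of 100 or more, so changes against virgin are set against a level at background. The group means were 8.98 ± 0.17 at day 3 and 6.63 ± 0.13 in virgin (SD, n = 3 each), a log2 change of 2.34 (SE 0.23; 5.08-fold; adjusted p = 0.000369, limma). Day 7 against day 3 gave a log2 change of -1.98 (SE 0.23; adjusted p = 0.00116, limma). Day 7 against virgin gave 0.37 with a 95% interval of -0.15 to 0.88 (adjusted p = 0.32, limma). Without day 3 mouse 1 the day 3 change was 2.26. In bulk arrays of this kind fewer expressing cells and less RNA per cell cannot be told apart, here or for any gene that follows.

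**Figure D1:**
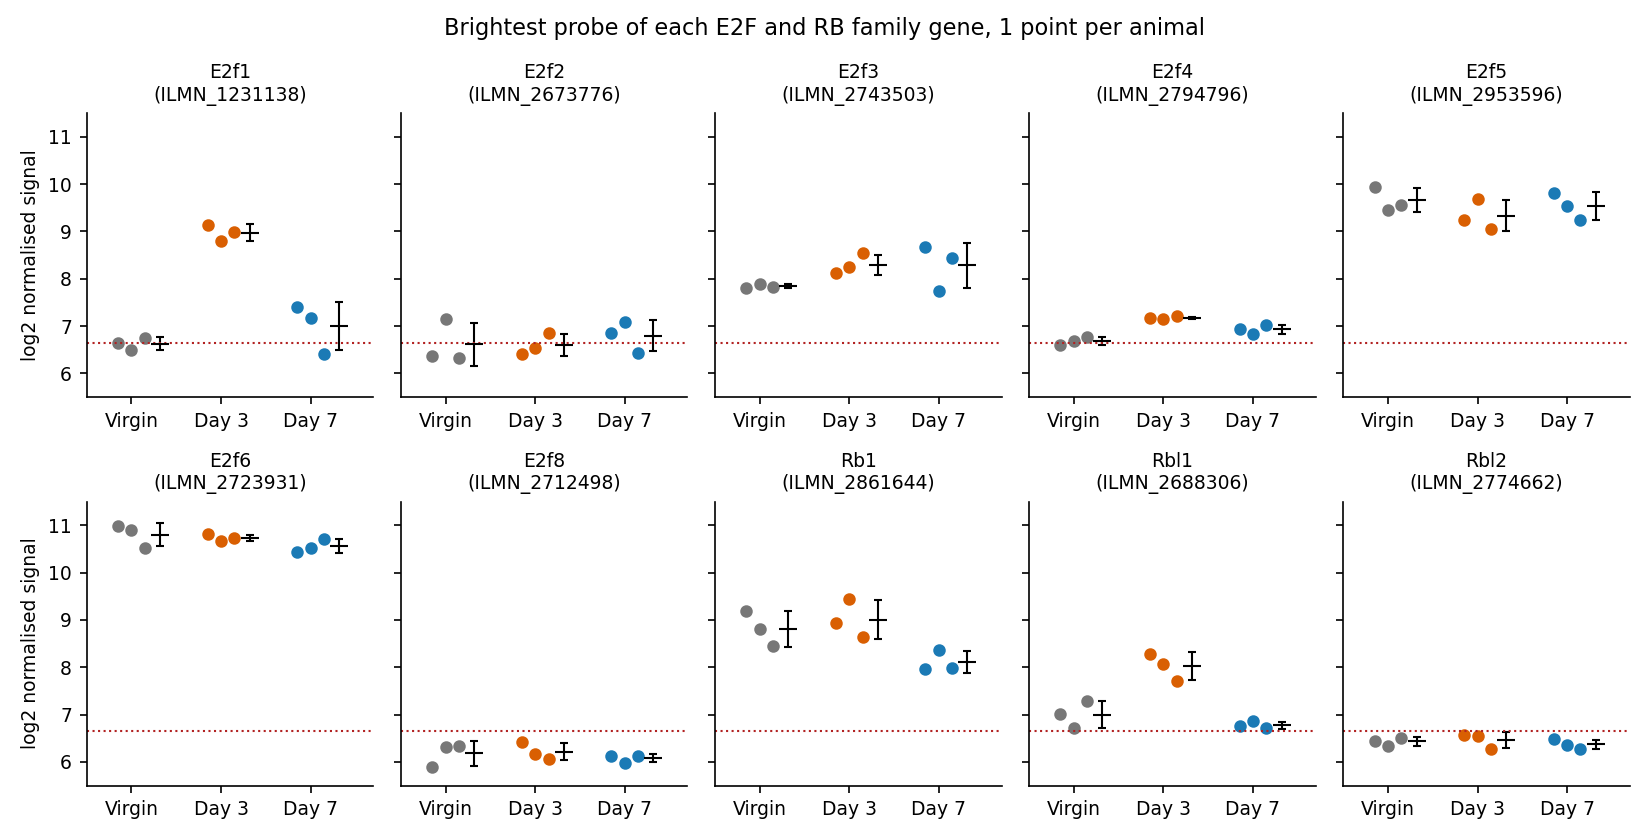
Log2 normalised signal of the brightest probe of each gene (y axis) in virgin, day 3 and day 7 mice (x axis), with 1 point per animal, a bar for the mean and whiskers for 1 SD of 3 animals; the dotted line marks the background signal of 100, or 6.64. E2f1 (8.80 to 9.14) and Rbl1 (7.70 to 8.29) at day 3 lie above all their virgin and day 7 points, whereas E2f8 and Rbl2 lie under the line throughout.

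Rbl1, the pocket protein gene that is induced in cycling cells, was also highest at day 3. Its probe ILMN_2688306 gave 7.01, 6.72 and 7.28 in the virgin mice, 8.29, 8.07 and 7.70 at day 3, and 6.75, 6.86 and 6.72 at day 7. All day 3 values exceeded all others, and the day 7 values lay within the virgin range or level with its lower end. Means were 8.02 ± 0.30 at day 3 and 7.00 ± 0.28 in virgin (SD, n = 3 each), a log2 change of 1.02 (SE 0.18; 2.03-fold; adjusted p = 0.00583, limma), just over the threshold fold. The change was under that fold when virgin mouse 2 (0.87), day 3 mouse 1 (0.89) or day 3 mouse 2 (0.99) was left out, so the call of Rbl1 at day 3 depends on single animals. At day 7 against day 3 the log2 change was -1.24 (SE 0.18; adjusted p = 0.00294, limma), and this stayed a call whichever array was left out, between -1.40 and -1.11. Of the other Rbl1 probes, ILMN_1240408 was 6.92, 6.97 and 6.53 at day 3, against 6.39, 6.50 and 6.48 in virgin, a change of 0.35 (adjusted p = 0.0884, limma) that did not reach the fold threshold. The third probe was not tested.

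The gene ranges of RefSeq on GRCm38.p6 place both called genes on chromosome 2, E2f1 at chr2:154559400-154569892 and Rbl1 at chr2:157145893-157204534. Promoter windows of RefSeq, 250 bases before and 50 from the start site, were found for 7 members in 9 windows, and were searched on both strands for the E2F letters TTTCCCGC, TTTCGCGC, TTTGCCGC and TTTGGCGC, and for TTTGAA, the CHR element bound by the MuvB complex. Over all 32851 windows of that length, 2.26% held one of the E2F words and 17.9% the CHR word. The windows of members that hold an E2F word are printed, and that of Tfdp1, the gene of a DP partner, is set beside them. Capitals mark the matched letters, and each window runs 5′ to 3′ along the gene, at chr2:157204485-157204784 (minus strand) for Rbl1, chr4:136172024-136172323 (plus strand) for E2f2, chr13:29986014-29986313 (minus strand) for E2f3 and chr8:13338501-13338800 (plus strand) for Tfdp1.
Rbl1: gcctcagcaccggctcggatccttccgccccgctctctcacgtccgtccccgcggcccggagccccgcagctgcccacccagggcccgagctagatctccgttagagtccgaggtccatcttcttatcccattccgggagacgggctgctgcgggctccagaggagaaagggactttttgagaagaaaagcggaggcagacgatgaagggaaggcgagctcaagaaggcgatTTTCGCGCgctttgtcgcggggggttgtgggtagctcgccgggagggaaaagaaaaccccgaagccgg
Tfdp1: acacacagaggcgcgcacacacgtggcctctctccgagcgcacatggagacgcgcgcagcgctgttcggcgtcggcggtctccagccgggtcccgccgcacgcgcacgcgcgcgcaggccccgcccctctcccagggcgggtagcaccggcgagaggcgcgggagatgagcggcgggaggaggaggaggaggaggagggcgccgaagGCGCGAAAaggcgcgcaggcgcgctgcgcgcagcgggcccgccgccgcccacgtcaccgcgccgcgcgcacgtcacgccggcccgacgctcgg
E2f2: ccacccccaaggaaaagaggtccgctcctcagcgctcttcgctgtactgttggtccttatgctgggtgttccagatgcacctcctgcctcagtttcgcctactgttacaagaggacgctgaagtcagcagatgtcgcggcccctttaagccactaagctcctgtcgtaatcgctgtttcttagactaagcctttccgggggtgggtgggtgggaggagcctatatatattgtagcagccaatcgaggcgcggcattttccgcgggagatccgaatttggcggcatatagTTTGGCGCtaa
E2f3: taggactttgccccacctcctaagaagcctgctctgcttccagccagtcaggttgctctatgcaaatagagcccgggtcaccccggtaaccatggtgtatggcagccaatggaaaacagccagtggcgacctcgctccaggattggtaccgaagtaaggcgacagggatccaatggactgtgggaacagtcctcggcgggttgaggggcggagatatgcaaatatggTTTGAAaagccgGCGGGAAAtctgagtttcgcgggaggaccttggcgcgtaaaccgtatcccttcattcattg
Bases are counted from 1 at the start site and from -1 before it, and E2F and CHR matches did not overlap. In Rbl1 the word TTTCGCGC lies at bases -18 to -11 from the start site. In Tfdp1 the same word is read on the opposite strand at -43 to -36. E2f2 has TTTGGCGC at 40 to 47, after the start, and E2f3 has TTTCCCGC on the opposite strand at -11 to -4 next to a CHR word at -23 to -18. The windows of E2f8 and Rbl2 and a second one of E2f2 hold a CHR word only, and a second one of E2f3 holds neither. The start sites of the E2f8 window and of the second E2f2 and E2f3 windows lie 477, 8508 and 1673 bases inside the annotated genes. The E2f1 window belongs to a start site 466 bases inside the annotated gene and holds no match. The windows of E2f1 and E2f8 stop short of the annotated 5′ ends, so the bases there were not searched. The E2f6 window holds no match. Of the 3 members with an E2F word, Rbl1 was called at day 3 and E2f2 and E2f3 were not. A match of letters is not a measured binding site.

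E2f3, the other activator above background, was measured on a pair of probes. ILMN_2743503 was 7.81, 7.89 and 7.83 in virgin, 8.11, 8.24 and 8.53 at day 3, and 8.67, 7.74 and 8.43 at day 7. All day 3 values exceeded the virgin values, while day 7 mouse 2 lay under every other array. The log2 change at day 3 was 0.45 (SE 0.22; adjusted p = 0.222, limma) and at day 7 0.44 (adjusted p = 0.217). With arrays scaled to a common median in place of quantile normalisation, the day 3 change was 1.02 and a call. The second probe, ILMN_1214485, gave 0.27 at day 3 (adjusted p = 0.168, limma) and 0.04 at day 7.

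E2f2 probes stayed around background. The brighter, ILMN_2673776, was 6.38, 7.14 and 6.32 in virgin, 6.42, 6.54 and 6.85 at day 3, and 6.86, 7.09 and 6.44 at day 7, with virgin mouse 2 the highest of all arrays. Its log2 change was -0.01 at day 3 (95% interval -0.57 to 0.55) and 0.19 at day 7 (-0.37 to 0.74). ILMN_2836137 was also highest in virgin mouse 2 (6.97), and the third probe was under 100 on every array.

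Among the repressor E2Fs that bind pocket proteins, E2f4 had small differences with little spread. Its single probe was 6.61, 6.68 and 6.77 in virgin, 7.16, 7.15 and 7.20 at day 3, and 6.95, 6.83 and 7.02 at day 7. The 3 stages did not overlap in any pair, with day 3 above day 7 and day 7 above virgin. The log2 change was 0.48 at day 3 (SE 0.09; 95% interval 0.29 to 0.68; adjusted p = 0.0066, limma), and 0.25 at day 7 (adjusted p = 0.0862), both under a fold of 2 on a probe close to background. E2f5 was 9.94, 9.46 and 9.57 in virgin, 9.24, 9.69 and 9.06 at day 3, and 9.82, 9.54 and 9.24 at day 7, and its stages overlapped. The change was -0.33 at day 3 (95% interval -0.80 to 0.15) and -0.12 at day 7 (-0.59 to 0.35), and its other probe was under 100 on every array.

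E2f6, which acts in a Polycomb-like repressor complex without pocket proteins, had 6 probes, of which 4 were tested. The brightest, ILMN_2723931, was 10.98, 10.90 and 10.52 in virgin, 10.80, 10.67 and 10.73 at day 3, and 10.43, 10.53 and 10.71 at day 7. Its stages overlapped, with a change of -0.07 at day 3 (95% interval -0.37 to 0.24) and -0.25 at day 7 (-0.55 to 0.06). ILMN_2791963 gave -0.14 and -0.26 in the same comparisons. The dimmer ILMN_2581972 ran the other way, with 0.34 and 0.42 (adjusted p = 0.212 and 0.113, limma), so the E2f6 probes did not share a direction. ILMN_2734152, under 100 on all virgin and day 7 arrays, gave 0.15 at day 3 (adjusted p = 0.273, limma) and -0.01 at day 7 against virgin. E2f8, an atypical repressor that is known to be made in S phase, was between 5.89 and 6.41 on all arrays on its single probe, which does not tell whether its transcript was present.

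Rb1 had a pair of tested probes. ILMN_2861644 was 9.20, 8.80 and 8.44 in virgin, 8.92, 9.45 and 8.63 at day 3, and 7.96, 8.37 and 7.98 at day 7. The day 7 mice were below all others, and the virgin and day 3 mice overlapped. Day 7 against day 3 gave a log2 change of -0.90 (SE 0.25; 1.87-fold; adjusted p = 0.0463, limma), and day 7 against virgin -0.71 (SE 0.25; adjusted p = 0.0848), both short of a fold of 2. The first of these was over that fold, and so a call, under median scaling (-1.06), with array weights (-1.01), without day 3 mouse 3 (-1.08) or without day 7 mouse 2 (-1.03). ILMN_2679619, nearer to background, was 6.83, 6.55 and 6.48 in virgin, 7.22, 7.55 and 6.82 at day 3, and 6.64, 6.68 and 6.46 at day 7. Its log2 change was 0.58 at day 3 (adjusted p = 0.0669, limma) and -0.60 at day 7 against day 3 (adjusted p = 0.0652), and -0.02 at day 7 against virgin. On the brighter probe day 3 against virgin was 0.19, with a 95% interval of -0.37 to 0.75. Rbl2, the pocket protein gene of resting cells, lay between 6.06 and 6.56 on both probes, under background on every array.

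Over the 15 tested probes, 2 were called higher at day 3 against virgin (E2f1 and Rbl1) and 0 lower, where 2.24% of all tested probes were called higher and 2.43% lower. Without a minimum fold, 5 member probes were higher at this adjusted p, beside 11.2% of all tested probes. At day 7 against virgin 0 member probes were called in limma, with 3 at an unadjusted p under 0.05 and 0 called with Cyber-T, where 2.89% of all probes were called higher, 2.99% lower, and 30.0% had an unadjusted p under 0.05. Without a minimum fold, 1 member probe was higher and 1 lower at day 7 against virgin, beside 12.4% and 10.8% of all tested probes. At day 7 against day 3, 2 were called lower, E2f1 and Rbl1 again, and 0 higher, where 1.73% of all probes were called lower and 2.10% higher, and 4 were lower without a minimum fold, beside 9.26%. Both comparisons with day 3 share the day 3 arrays, and those with virgin share the virgin arrays. The median log2 change of the 15 probes was 0.27 at day 3 and 0.04 at day 7 against virgin, and -0.18 at day 7 against day 3, beside -0.01 over all tested probes in each.

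**Figure D2:**
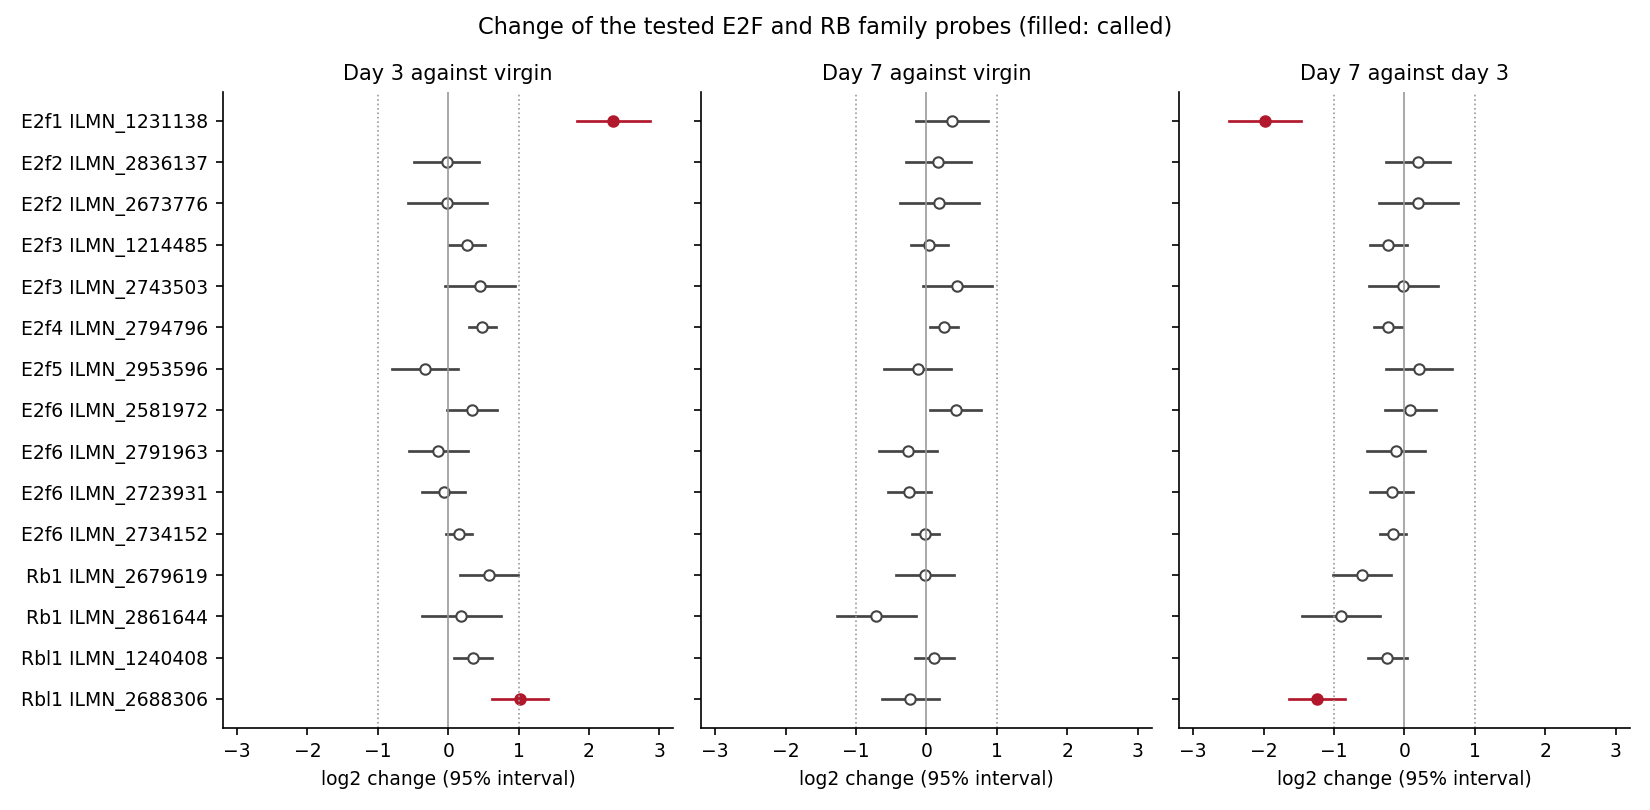
Log2 change (x axis) of the 15 tested probes (y axis) in 3 comparisons, with 95% limma intervals; filled red points were called and dotted lines mark a fold of 2 in either direction. E2f1 (2.34) and Rbl1 (1.02) were called at day 3 against virgin, none at day 7 against virgin, and E2f1 (-1.98) and Rbl1 (-1.24) at day 7 against day 3.

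The groups did not overlap for 8 of the 15 member probes at day 3 against virgin, for 3 at day 7 against virgin and for 6 at day 7 against day 3. Among all tested probes 33.1%, 32.6% and 33.0% did not overlap in these comparisons. The 8 include ILMN_2734152 of E2f6 and ILMN_1240408 of Rbl1, and the 6 include ILMN_2734152 and ILMN_2679619 of Rb1. These probes averaged 100 or more only at day 3, so they were tested only because they were high at that stage. For 13, 14 and 11 of the 15 probes the 95% interval of the change lay inside a fold of 2, which bounds the change in signal. Since changes of dim probes are understated, it does not bound the change in transcript for probes near background, such as those of E2f2 and E2f4. An exact permutation test of 3 against 3 mice cannot go below p = 0.10, so for single probes the spread was taken from the model over all probes.

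The DP proteins pair with E2F factors to bind DNA. Tfdp1, 1 of the 2 DP genes measured, was 9.05, 8.52 and 8.50 in virgin, 10.01, 9.86 and 9.63 at day 3, and 8.52, 8.47 and 8.45 at day 7. The day 3 mice were above all others, as for E2f1 and Rbl1. Its log2 change was 1.14 at day 3 against virgin (SE 0.16; adjusted p = 0.00206, limma) and -1.35 at day 7 against day 3 (adjusted p = 0.00126). Tfdp2 gave 0.25 at day 3 and 0.69 at day 7 against virgin (adjusted p = 0.02, limma) on its brightest probe. Its other 4 tested probes gave 0.11 to 0.81 at day 3, of which ILMN_2760211 had 0.81 (adjusted p = 0.00957, limma), and none was called.

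**Figure D3:**
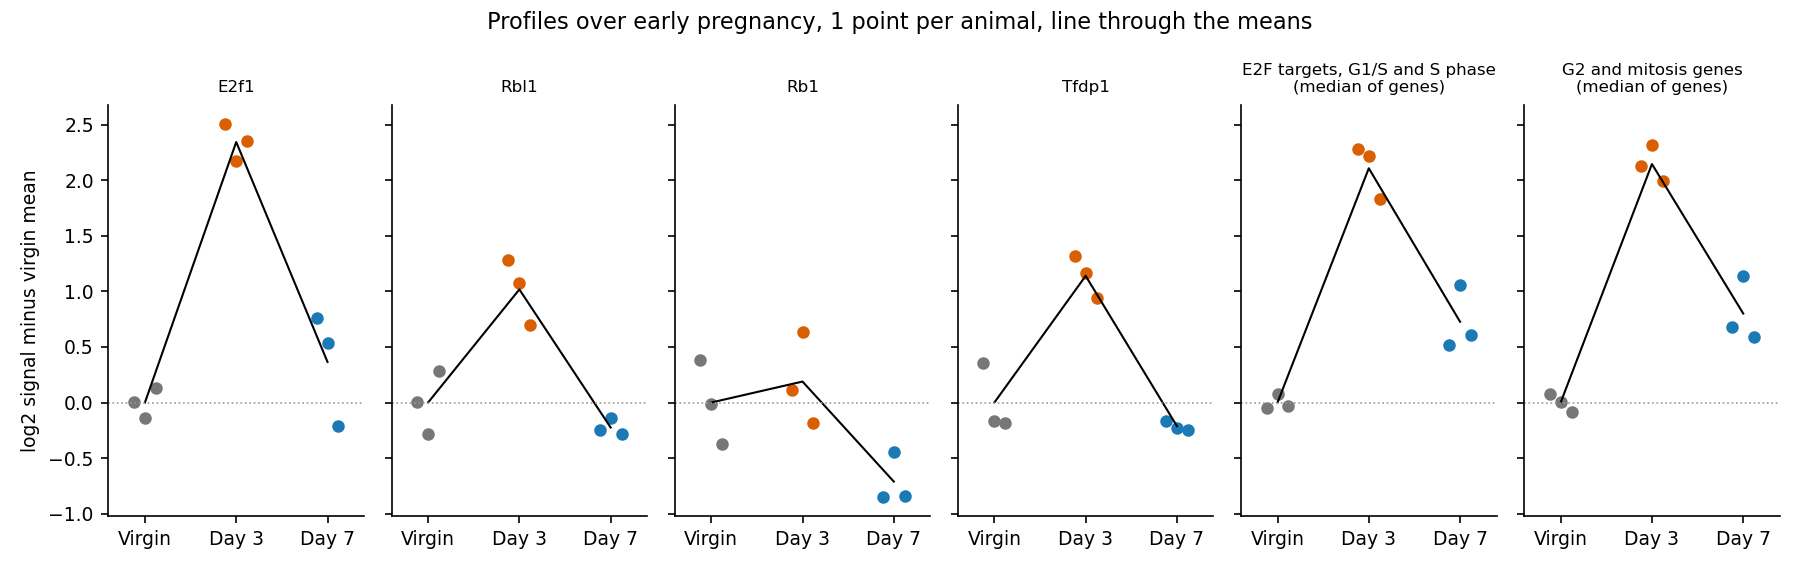
Log2 signal minus the mean of the virgin mice (y axis) in virgin, day 3 and day 7 mice (x axis) for E2f1, Rbl1, Rb1 (ILMN_2861644), Tfdp1 and the median level of the genes of 2 cell cycle lists, with 1 point per animal and a line through the group means. E2f1, Rbl1, Tfdp1 and both lists are highest in the 3 day 3 mice, and Rb1 is lowest in the 3 day 7 mice.

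For whole genes the brightest probe was used, and 2.82% of 11239 genes were called higher and 3.01% lower at day 3 against virgin, 3.55% and 3.73% at day 7 against virgin, and 2.63% and 2.17% at day 7 against day 3. Of 50 E2F targets of the G1/S transition and S phase, 41 were measured. At day 3 against virgin 31 of them rose and 0 fell (median log2 change 1.50, beside -0.01 over all genes). Without day 3 mouse 1, 29 rose. Of the 41, 6 lay under 100 on every virgin array. These passed the filter only through a pregnant group and could not be called lower than virgin, so the counts against virgin are partly set by the filter. At day 7 against virgin 6 were higher and 0 lower (median 0.30), and at day 7 against day 3 0 were higher and 20 lower (median -0.99). Without a minimum fold, 14 were higher at day 7 against virgin and 35 lower at day 7 against day 3, beside 14.3% and 10.5% of all genes. The helicase subunit gene Mcm5 was 11.64 ± 0.40 at day 3 and 7.38 ± 0.24 in virgin (SD, n = 3 each), a log2 change of 4.26 (adjusted p = 4.53e-05, limma). Rrm2, a subunit of ribonucleotide reductase, rose by 3.59, Uhrf1, which maintains DNA methylation at forks, by 3.49, and the replication initiation factor Mcm10 by 3.35, although other Mcm10 probes gave 0.77 and 0.25 and were not called. At day 7 Mcm5 (2.02), the chromatin assembly subunit Chaf1b (1.60), the DNA polymerase subunit Pole (1.49) and the reductase subunit Rrm1 (1.27, with 0.59 on a second probe that was not called) were higher than in virgin. Among those lower at day 7 than at day 3 were Uhrf1 (-2.92), Rrm2 (-2.76) and Mcm10 (-2.72). Other Mcm10 probes gave -0.80 and -0.29 in this comparison and were not called. The other 10 of the 41 targets were not called at day 3. Orc6, an origin recognition subunit, rose by 0.85 (adjusted p = 0.00861, limma) and missed only the fold. The sliding clamp gene Pcna gave 0.32 (adjusted p = 0.276, limma). Mcm3, which reached 100 on 1 of 3 day 3 arrays and on no other, gave 0.11 (adjusted p = 0.452, limma). At day 3 against virgin 37 of the 41 had an unadjusted p under 0.05 (limma), beside 30.6% of all genes.

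Genes of G2 and mitosis, which pocket proteins with E2f4 and the MuvB core repress in resting cells, were higher at day 3 in 16 of 21 measured, of 32 listed, and 0 were lower (median 1.89, or 1.71 with genes under 100 on all virgin arrays set at their bound), and the count was also 16 without day 3 mouse 1. At day 7 against virgin 7 were higher and 0 lower (median 0.52, or 0.46 with the bounds), and at day 7 against day 3 0 were higher and 16 lower (median -1.59). The mitotic kinase gene Pbk was 12.01, 12.16 and 11.64 at day 3, against 6.37, 6.31 and 6.40 in virgin, where it was not above background, so that it was at least 39.3-fold higher. Cdca8, a subunit of the chromosomal passenger complex, rose by 4.74 on its brightest probe, while another gave 0.10 and was not called. The kinesin gene Kif22 rose by 4.47. Cdca3, a trigger of mitotic entry, rose by 4.15, with 1 of 3 virgin arrays at 100 or more, and by 2.71 on a second probe. The kinesin gene Kif23 counts as not called, since its brightest probe gave -0.38 (adjusted p = 0.21, limma), but 2 other probes were called higher at day 3, by 2.67 and 1.52. Of the 21 measured genes, 6 lay under 100 on every virgin array. These too were tested only through a pregnant group and could not be called lower than virgin. Both lists were chosen with earlier results of these data known, so their counts are a description.

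Upstream of the pocket proteins, 1 of 7 measured cyclin and kinase genes was called. Cdk4, the partner of the D cyclins, was 8.08, 8.12 and 8.21 in virgin, 9.69 to 10.03 in the 3 day 3 mice, and 9.67, 9.51 and 8.77 at day 7, with all mice of both pregnant groups above all virgin mice. Its log2 change was 1.77 at day 3 (adjusted p = 0.0011, limma) and 1.18 at day 7 against virgin (adjusted p = 0.00643), with 1.15 and 0.33 on a second probe, of which the first was a call. Cdk2, the partner of cyclin E, gave 0.93 at day 3 (adjusted p = 0.00115, limma) on its brightest probe and 0.22, -0.14 and -0.08 on the other tested probes. Ccnd3 gave 0.62 (adjusted p = 0.0102, limma) and, on a second probe, -0.07. Neither gene reached a fold of 2. Ccnd1 gave 0.04 at day 3 (adjusted p = 0.942, limma) and -0.61 at day 7 (adjusted p = 0.131).

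Among the 7 CDK inhibitors, 1 was lower at day 3 against virgin and 0 higher. Cdkn1a, a target of p53 that blocks CDK2, was 11.56, 10.60 and 10.73 in virgin, 9.41, 9.46 and 9.69 at day 3, and 9.56, 9.27 and 9.47 at day 7, so that both pregnant groups lay below every virgin mouse. Its log2 change was -1.44 at day 3 with an adjusted p of 0.00398 and -1.53 at day 7 with 0.00269 (limma), and both calls were lost under median scaling. A second probe gave -1.71 and -1.72, also calls, and another near background gave -0.49 and -0.40. In the day 7 mice 2 inhibitors were lower than in virgin and 1 higher, Cdkn1c, an imprinted inhibitor. It was 8.12, 7.75 and 8.08 in virgin, 7.23, 8.65 and 7.33 at day 3, and 9.90, 9.47 and 10.57 at day 7, with the day 7 mice above all others and a log2 change of 2.00 against virgin (adjusted p = 0.00903, limma). Cdkn2b, an inhibitor of CDK4 and CDK6, changed by -1.51 at day 7 against virgin (adjusted p = 0.0162, limma). Cdkn1b, Cdkn2a, Cdkn2c and Cdkn2d were not called in any comparison.

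**Figure D4:**
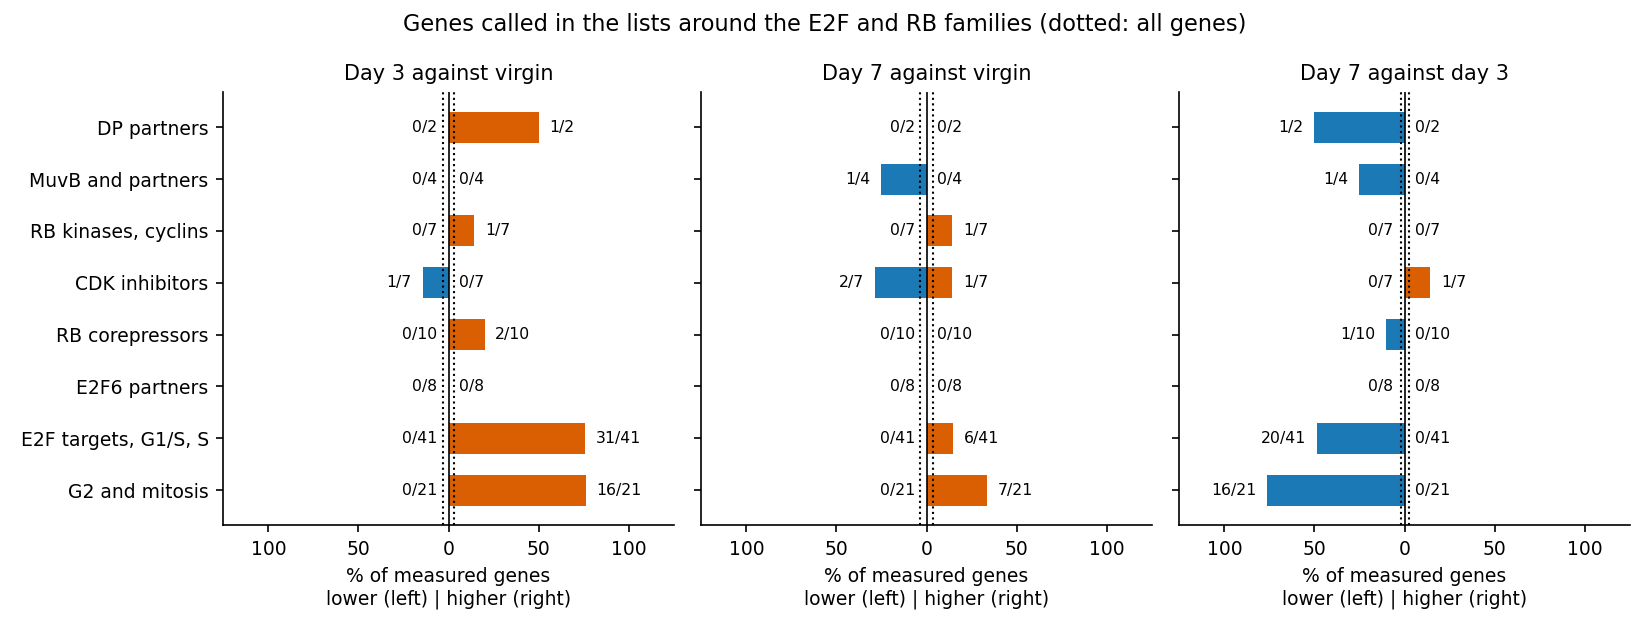
Share of measured genes called higher (right, orange) or lower (left, blue) in each list (y axis) for 3 comparisons, with the number called of the number measured beside each bar and dotted lines at the share over all 11239 genes. The G1/S and S phase targets (31 of 41) and the G2 and mitosis genes (16 of 21) were called higher at day 3 against virgin, and 20 of 41 and 16 of 21 lower at day 7 against day 3.

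Of the MuvB core and its cell cycle partners 4 of 7 were measured. Lin54, the subunit that binds the CHR element, was 8.87, 8.29 and 8.57 in virgin, 8.94, 9.11 and 8.81 at day 3, and 7.57, 7.51 and 7.39 at day 7, with a log2 change of -1.09 against virgin (adjusted p = 0.00167, limma) and -1.46 against day 3. The first of these calls was lost without virgin mouse 1 (-0.94) and under median scaling (-0.59). Foxm1, a mitotic activator, gave 0.82 at day 3 (adjusted p = 0.00558, limma) and Mybl2 1.69 (adjusted p = 0.154), and neither was called. Of 10 measured corepressors that RB proteins recruit, 2 were higher at day 3, the deacetylase gene Hdac2 (1.18) and the maintenance methyltransferase gene Dnmt1 (1.03), which is also on the S phase list. The Dnmt1 call at day 3 was lost without virgin mouse 1 (0.95), day 3 mouse 1 (0.95) or day 3 mouse 2 (0.92), so that the count was 1 in each case. The 8 measured partners of E2F6 had 0 calls in either direction in all 3 comparisons in limma, with 1, 4 and 2 at an unadjusted p under 0.05 (day 3 against virgin, day 7 against virgin, day 7 against day 3), where 30.6%, 33.3% and 28.6% of all genes had such a p.

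Over the 9 arrays, the genes with the profile closest to E2f1 were Tk1 (Pearson's r = 0.989), Fbln1 (0.987) and Dbf4 (0.985), among 15904 probes compared. Those closest to Rbl1 were Gng10 (0.976), Prdx1 (0.972) and Mcm10 (0.972, probe ILMN_2679464). Tk1 makes a DNA precursor and Dbf4 activates the kinase that fires origins, while Fbln1 is a matrix protein. The 9 points share the 3 stages, so these values are a description.

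Markers of HR+ cells and of other cell types were read beside these results. Of the 9 measured HR+ markers, 2 were called higher and 1 lower at day 3 against virgin, and 2 higher and 2 lower at day 7 against virgin. At day 3 against virgin, 1 of 9 basal markers was called higher (Krt17, 2.83), 1 of 4 erythroid genes higher (Hba-a1, 2.45), 2 of 5 macrophage markers lower (Lyz1 and Lyz2), 1 of 9 HR- luminal markers lower (Csn3), and 0 of 6 fibroblast, 0 of 7 endothelial and 0 of 4 lymphocyte markers in either direction. At day 7 against virgin the basal calls were Krt17 (3.66) and Trp63 (1.86), with 0 lower, and 2 HR- luminal markers were higher, the milk genes Csn2 (at least 5.09-fold) and Wap (at least 1.97-fold), while Csn3 was lower (-2.69). In that comparison the endothelial marker Vwf (1.55) and the erythroid gene Hba-a1 (3.55) were higher, the fibroblast marker Dcn was lower (-2.24), and 0 macrophage and 0 lymphocyte markers were called. The summed signal of the 7 endothelial markers was 1895 to 2644 in virgin, 1659 to 2214 at day 3 and 4186 to 6303 at day 7. Most of this sum is Vwf (10.26 to 10.98 in virgin, 11.71 to 12.45 at day 7). Of the others, Pecam1 and Esam were higher in every day 7 mouse than in any virgin mouse and Eng was lower, and none was called. The summed signal of the 4 erythroid genes was 443 to 457 in virgin, 905 to 1259 at day 3 and 1805 to 2596 at day 7. Its rise mostly follows Hba-a1 (7.07 to 7.30 in virgin, 9.26 to 9.91 at day 3 and 10.58 to 11.07 at day 7). The summed signal of the 5 macrophage markers was 766 to 2187, 515 to 596 and 1385 to 1710 at these stages, and its differences mostly follow Lyz1 and Lyz2. No defining marker of the arrays reads 0, since the values carry background, and the part of these cells in the changes of the E2F and RB genes was not tested. The day 3 changes of E2f1 and Rbl1 without day 3 mouse 1, which had the highest Krt14 and Acta2 of its group, were 2.26 and 0.89.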

How the data were processed

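Arrays of HR+ mammary cells from 3 virgin, 3 day 3 and 3 day 7 pregnant mice were analysed. The authors deposited intensity values on a linear scale, before normalisation, and log2 values that they quantile normalised in Partek Genomics Suite 6.6. The log2 values were the main input, and the intensity values served alternatives. Recomputed quantile normalisation and the deposited log2 values lay 0.0238 apart in the mean and 0.118 apart at the widest. How bead signals were combined into probe signals is not given in the sources used here, and detection p values were not used here. Probes were named from the platform annotation: 34885 by 1 gene, 18 by several and 10378 by none. Sequences and gene ranges came from RefSeq tables of GRCm38.p6.

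Probes that averaged 100 or more in some group were tested in R 4.3.3 with limma 3.58.1 (lmFit and eBayes on all 9 arrays, group as the only term). A call needed a fold of 2 and an adjusted p of 0.10. In gene lists the brightest probe, by its mean over the 9 arrays, stood for a gene. Where all arrays of a group lay under 100, a fold was set against 100 as a lower bound. Named genes were all members, up to 4 called genes of each list and comparison with the largest change, genes of lists with 10 or fewer, and the 3 genes most like each called member. Pcna, Mcm3, Orc6, Kif23 and the markers of the sort were named after their values were seen. The members and lists were chosen with earlier results of these data known. Fits were tested on data simulated for day 3 against virgin, with 100 changed probes at each size. For log2 changes of 1.25 and 2, limma recovered 82% and 97%, with 2 false calls. Cyber-T recovered 92% and 100%, with 28 false calls, so it called more freely. The number of arrays limits the precision, and whether p values reflect more than the spread between these animals cannot be told. Replicate numbers did not pair the samples: deviations of arrays with the same number correlated at -0.05 to 0.07, those with different numbers at -0.07 to 0.07. Alternatives changed the normalisation, background correction, filter, test, arrays and threshold.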

Additional observations from a re-analysis of the deposited data

Results flagged for a closer look

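E2f1 and Rbl1 were picked out because the change against virgin at day 3 differed from that at day 7 in a test of the difference itself. For E2f1 the change at day 7 minus that at day 3 was -1.98 on the log2 scale, lower in 3 of 3 day 7 mice than in any day 3 mouse. For Rbl1 it was -1.24, again with all 3 day 7 mice below all day 3 mice. Since both changes share the virgin arrays, this is the contrast of day 7 with day 3 (adjusted p = 0.00116 for E2f1 and 0.00294 for Rbl1, limma). With 3 mice in a group, single mice were not screened for values far from the rest of their group.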

How the results depend on the processing

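The values of the 15 tested probes were recomputed under 22 alternatives, 9 of which left out 1 array. Of 981 values, 966 kept their side of the threshold, 3 lost it, 12 gained it and 0 changed the sign of a call, while 35 values that were not called changed sign. The number of member probes called higher at day 3 against virgin was 2, and 1 to 2 when an array was left out: it was 1 without virgin mouse 2, without day 3 mouse 1 or without day 3 mouse 2, in each case because Rbl1 fell under a fold of 2. Without a minimum fold the counts were 5 higher at day 3 against virgin, 1 higher and 1 lower at day 7 against virgin, and 4 lower at day 7 against day 3. With the replicate number as a block in the fit the counts of 2 higher at day 3 against virgin, 0 at day 7 against virgin and 2 lower at day 7 against day 3 did not change, and the block changed no other call of a member. Over all alternatives E2f1 ranged from 2.25 to 2.75 at day 3 against virgin and from -2.27 to -1.69 at day 7 against day 3, with an adjusted p of at most 0.00303 and 0.00852 in limma or Cyber-T.

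Median scaling moved the median of all probes by 0.21 at day 3 and 0.18 at day 7 against virgin, and changes under it are relative to that shift. It raised the S phase targets called higher at day 7 from 6 to 13 and the MuvB genes called higher at day 3 from 0 to 3, and it left 0 CDK inhibitors called lower in place of 1 at day 3 and 2 at day 7. Without a minimum fold, 14 S phase targets were higher at day 7 and 35 lower at day 7 against day 3, in place of 6 and 20. The S phase targets called higher at day 3 numbered 27 to 37 over all alternatives, and the G2 and mitosis genes 16 to 19. The cause of these shifts was not tested. A block for the BeadChip was not run, because the files name none. Dim members (E2f2, E2f4, E2f8, Rbl2) are limited by their signal over background.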
